A study of Mus musculus with 11 samples.

Results

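The genes described here are the 5 NF-κB subunit genes Nfkb1, Nfkb2, Rel, Rela and Relb and 5 genes of inhibitors and nuclear IκB proteins that limit or tune NF-κB, Nfkbia, Nfkbie, Nfkbiz, Tnfaip3 and Bcl3. They were chosen by name, and all 10 were found among the 23286 rows of the expression table. The RNA was polyA-selected from primary mouse embryonic palatal mesenchyme cells (MEPMs), the cells that build the connective tissue and bone of the palatal shelves, from E13.5 embryos. All cells were grown in DMEM with 10% fetal bovine serum (FBS) and then starved overnight in 0.1% FBS. Of 11 libraries, 4 were from starved cells with no ligand, 4 from cells given 30 ng/mL PDGFA for 1 h and 3 from cells given FGF1 for 1 h at 50 ng/mL, together with heparin at 1 µg/mL. PDGFA and FGF1 act through receptor tyrosine kinases, and heparin helps FGF1 to bind its receptors. The labels give no strain, sex or genotype and do not say which embryos or cultures made each library. No group had heparin alone, so FGF1 and heparin cannot be told apart, and the doses of the ligands differed.

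NF-κB factors are dimers of the 5 subunits. Rela, Rel and Relb encode subunits with a transactivation domain, and Nfkb1 and Nfkb2 encode precursors that are processed to DNA-binding subunits without one. In resting cells IκB proteins hold the dimers in the cytoplasm. Many stimuli activate the IκB kinase complex, IκB is degraded, and the freed dimers enter the nucleus. Nfkbia (IκBα), Nfkbie (IκBε) and Tnfaip3 (a ubiquitin-editing enzyme that dampens signalling to the kinase complex) are textbook targets of NF-κB itself and form negative feedback. Nfkbiz (IκBζ) and Bcl3 encode nuclear IκB proteins that bind subunits on DNA and can raise or lower transcription. A 1 h stimulus is within the time at which these feedback genes respond to cytokines in many cell types.

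The upstream sequences of the genes were searched for the letters of κB sites, the DNA element that NF-κB dimers bind. Of the 10 genes, 7 had an entry in the RefSeq promoter table (GRCm38.p6, which is mm10): Nfkb2, Rel, Rela, Nfkbia, Nfkbie, Tnfaip3 and Bcl3. The 250 bases before each annotated start were searched on both strands for the κB consensus, and 5 of the 7 genes held a match, all but Rela and Bcl3. Below are the 150 bases directly before one annotated start of each of these 5 genes, 5′ to 3′ on the gene's own strand, with κB matches in capitals. Ier3, a survival gene that serves as an NF-κB target, is shown with them because, among the called pathway genes with a promoter entry, it was the one that held a κB match.
Nfkbia (chr12:55492648-55492797, minus strand): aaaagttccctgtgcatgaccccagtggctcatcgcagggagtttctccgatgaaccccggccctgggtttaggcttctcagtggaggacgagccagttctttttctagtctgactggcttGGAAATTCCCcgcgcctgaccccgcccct
Tnfaip3 (chr10:19015411-19015560, minus strand): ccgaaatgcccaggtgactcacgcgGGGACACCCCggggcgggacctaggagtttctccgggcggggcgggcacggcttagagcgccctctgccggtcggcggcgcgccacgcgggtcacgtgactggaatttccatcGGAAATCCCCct
Nfkbie (chr17:45555550-45555699, plus strand): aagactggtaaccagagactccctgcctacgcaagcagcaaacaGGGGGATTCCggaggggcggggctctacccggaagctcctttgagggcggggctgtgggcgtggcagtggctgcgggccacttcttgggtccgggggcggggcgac
Nfkb2 (chr19:46304587-46304736, plus strand): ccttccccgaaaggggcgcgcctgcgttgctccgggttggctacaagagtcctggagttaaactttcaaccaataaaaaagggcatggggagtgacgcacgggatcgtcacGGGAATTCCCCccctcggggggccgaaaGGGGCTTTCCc
Rel (chr11:23770970-23771119, minus strand): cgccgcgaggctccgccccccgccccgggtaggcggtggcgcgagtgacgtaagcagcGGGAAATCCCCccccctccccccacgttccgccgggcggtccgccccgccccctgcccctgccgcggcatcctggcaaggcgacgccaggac
Ier3 (chr17:35821563-35821712, plus strand): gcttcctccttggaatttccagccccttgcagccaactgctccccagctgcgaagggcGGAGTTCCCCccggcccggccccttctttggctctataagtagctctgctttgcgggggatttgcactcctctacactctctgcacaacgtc
With the last base before the start counted as -1, the Nfkbia match lay at -29 to -20, the Rel match at -92 to -82 and the Nfkbie match at -106 to -97. Tnfaip3 held matches at -125 to -116 and at -12 to -3. Nfkb2 held matches at -39 to -29 and at -11 to -2 before the start shown, which lies inside the annotated gene. The starts shown for Nfkb2 and Nfkbie were not found at the beginning of a GENCODE M21 transcript, so their distances rest on the RefSeq start alone. A match was present in 3.90% of all 32851 promoter windows of the same length, counted per window and not per gene. Other motifs of factors that growth factors act through were rarer beside these genes. The AP-1 motif TGANTCA was found before Nfkb2, Nfkbie and Tnfaip3, and the EGR motif GCGNGGGCG before Nfkb2. The background shares of windows were 6.75% and 4.70%. The CArG box and the CRE motif TGACGTCA had 0 matches, with background shares of 1.47% and 1.55%. No κB match overlapped a match of another motif. A match is a description of letters and not evidence of binding.

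**Figure D1:**
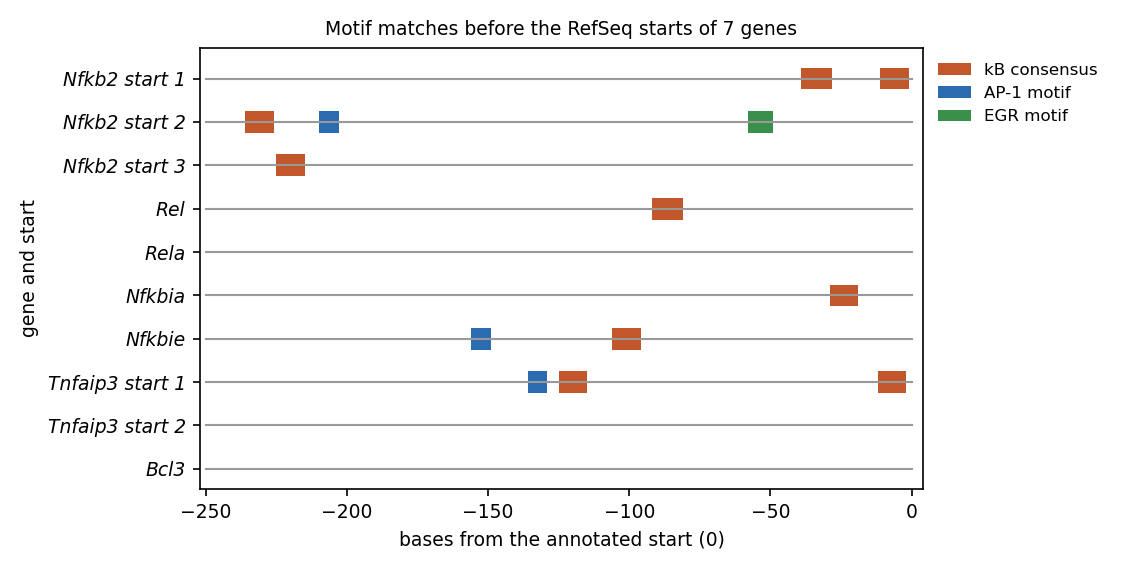
Motif matches in the 250 bases before each annotated start of the 7 genes with a promoter entry, by distance in bases from the start (0); boxes are matches of the κB consensus, the AP-1 motif and the EGR motif on either strand. Nfkb2 has 3 annotated starts and Tnfaip3 has 2; the Rela and Bcl3 lines hold no match.

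Each group was represented by 1 FPKM value per gene (fragments per kilobase of transcript, scaled to mapped fragments) that the authors derived from all libraries of the group, and by a deposited lower and upper bound. The interval is given in brackets after each value, and its confidence level is not stated. Values of single libraries were not used here, so no SD or p-value between replicates can be given, and sequencing depth is unknown. A gene was called higher or lower when the intervals of the compared groups lay wholly apart and each value lay inside its own interval. Rows with at least 1 FPKM in a group were compared, 11702 in all. Of the 10 genes, 9 were compared, and Bcl3, with at most 0.975 FPKM, was not.

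In starved palatal mesenchyme the subunit genes Rela, Nfkb1 and Nfkb2 had the highest values of the 10. These are on the FPKM scale, which allows for transcript length. Rela stood at 33.9 FPKM, above 79.9% of compared rows, Nfkb1 at 26.4 (above 74.1%) and Nfkb2 at 25.6 (above 73.5%). The IκBα gene Nfkbia had 14.7 FPKM and Relb 11.1. The lower tier held Nfkbie at 5.90, Rel at 4.49, Tnfaip3 at 2.90, Nfkbiz at 1.88 and Bcl3 at 0.949 FPKM. Between neighbours in this order the intervals lay apart only at the step from Relb to Nfkbie, so neighbours within each tier are not resolved. The same step was the only one apart with PDGFA. With FGF1 the steps from Nfkb1 to Relb and from Nfkbiz to Bcl3 were apart. In each group the Nfkbia interval reached across the steps named, so they separate neighbours only and not whole tiers. In starved cells the Nfkbia interval [5.64 to 23.8] overlapped those of Nfkbie [4.22 to 7.58] and Rel [3.17 to 5.81].

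**Figure D2:**
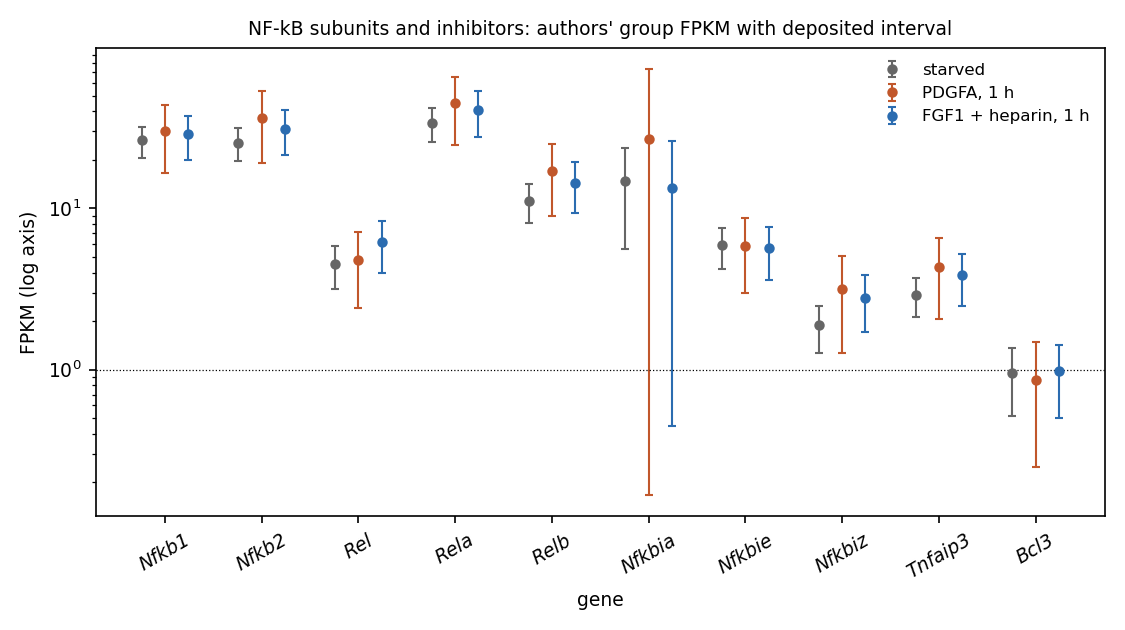
FPKM (log axis) of the 10 genes in starved cells, with PDGFA and with FGF1 and heparin; points are the authors' group values and bars the deposited intervals. The 3 intervals of every gene overlap, those of Nfkbia are the widest, and Bcl3 lies under the dotted line at 1 FPKM.

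After 1 h of ligand, none of the 9 compared genes was called in any comparison. With PDGFA 0 of 9 were called, where 0.308% of all compared rows were (36 higher, 0 lower). With FGF1 0 of 9 were called, against 0.555% of all rows (63 higher, 2 lower). Between the ligands 0 of 9 were called, against 0.12% of all rows. With shares this small, a count of 0 among 9 genes is near the background, and it does not show that the genes did not change. A looser rule, under which each group's value need only lie outside the other group's interval, also called 0 of the 9 in each comparison. That rule called 0.966% of all rows with PDGFA, 1.76% with FGF1 and 0.513% between the ligands. Both ligand comparisons share the starved group, so their values are given side by side and not as separate evidence.

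Among the subunits the PDGFA values stood above the starved values in all 5 genes, by 1.06 to 1.53 times, inside overlapping intervals. Relb, a subunit of the non-canonical dimer, had 11.1 FPKM [8.07 to 14.1] in starved cells, 17.0 [8.92 to 24.9] with PDGFA and 14.3 [9.40 to 19.3] with FGF1. The starved value was the lowest and the PDGFA value the highest, and all 3 intervals overlapped. The PDGFA to starved ratio was 1.53, and the bounds of the intervals allow ratios from 0.633 to 3.09. Nfkb2, whose precursor is the partner of Relb, had 25.6 FPKM [19.7 to 31.5] starved, 36.2 [19.0 to 53.4] with PDGFA and 31.2 [21.4 to 40.9] with FGF1. It showed the same order, with a PDGFA ratio of 1.41 (0.603 to 2.72) and an FGF1 ratio of 1.22 (0.679 to 2.08).

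Rela, the main transactivating subunit, had 33.9 FPKM [25.8 to 42.0] starved, 45.2 [24.7 to 65.7] with PDGFA and 40.6 [27.7 to 53.4] with FGF1. Its ratios were 1.34 (0.588 to 2.55) and 1.20 (0.660 to 2.07), so both ligand values lay above the starved one within overlapping intervals. Nfkb1, which encodes its usual partner, varied least of the subunits across the 3 groups, with 26.4 FPKM [20.6 to 32.1] starved, 30.3 [16.5 to 43.9] with PDGFA and 28.8 [20.1 to 37.5] with FGF1. Rel, the subunit best known from lymphocytes, was the only compared gene of the family with its highest value in the FGF1 group. It had 4.49 FPKM [3.17 to 5.81] starved, 4.78 [2.40 to 7.15] with PDGFA and 6.17 [3.98 to 8.37] with FGF1. Its FGF1 ratio was 1.37 to starved cells (0.685 to 2.64) and 1.29 to PDGFA cells (0.557 to 3.48), and the intervals overlapped in both.

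The group values of the inhibitor and nuclear IκB genes did not share one order. The bounds of their ratios overlapped, so a difference between these genes is not resolved. Tnfaip3 had 2.90 FPKM [2.11 to 3.69] starved, 4.30 [2.06 to 6.55] with PDGFA and 3.85 [2.49 to 5.20] with FGF1, ratios of 1.48 (0.558 to 3.10) and 1.33 (0.674 to 2.46). Nfkbiz had 1.88 FPKM [1.27 to 2.49] starved, 3.16 [1.28 to 5.04] with PDGFA and 2.78 [1.71 to 3.84] with FGF1, ratios of 1.68 (0.513 to 3.98) and 1.48 (0.687 to 3.03). In both genes the ligand values lay above the starved value, the PDGFA value was the highest, and the intervals overlapped. Nfkbie had nearly the same value in each group, with 5.90 FPKM [4.22 to 7.58] starved, 5.83 [3.00 to 8.67] with PDGFA and 5.65 [3.59 to 7.68] with FGF1. Its ratios were 0.988 (0.396 to 2.06) and 0.958 (0.473 to 1.82), whose bounds still allow changes of about 2 times. Bcl3 had 0.949 FPKM [0.519 to 1.37] starved, 0.862 [0.249 to 1.49] with PDGFA and 0.975 [0.498 to 1.43] with FGF1, and at this level no ratio is read.

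Nfkbia, the feedback gene most often used as a readout of NF-κB, was the least resolved of the 9. It had 14.7 FPKM [5.64 to 23.8] starved, 27.1 [0.167 to 73.1] with PDGFA and 13.3 [0.446 to 26.3] with FGF1. The PDGFA value was the highest and the FGF1 value close to the starved one, but the PDGFA interval held both other intervals. The PDGFA to starved ratio was 1.84, and the FGF1 to starved ratio was 0.905 (0.019 to 4.66). Averaged over both sides, its bounds lay 134.6% of the value away with PDGFA, 96.8% with FGF1 and 61.7% in starved cells. The medians over compared rows were 49.6%, 34.7% and 25.6%, and only 2.10%, 2.38% and 3.31% of rows were wider than Nfkbia. The other 8 genes lay between 45.2% and 59.6% with PDGFA, between 30.3% and 38.4% with FGF1 and between 21.8% and 32.5% in starved cells. The locus recorded for the Nfkbia row spans 211834 bases of chromosome 12 and is shared with 4 other rows, Prorp, Mir1198, Psma6 and Ppp2r3c, whereas the RefSeq gene itself covers 3239 bases. Of these neighbours, the 3 that were compared lay between 65.8% and 149.9% with PDGFA. They lay between 42.3% and 107.0% with FGF1 and between 27.8% and 76.0% in starved cells. The medians over all compared rows that share a locus were 61.4% with PDGFA, 40.7% with FGF1 and 29.7% in starved cells. The part of the shared locus in the width of the Nfkbia interval was not tested.

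**Figure D3:**
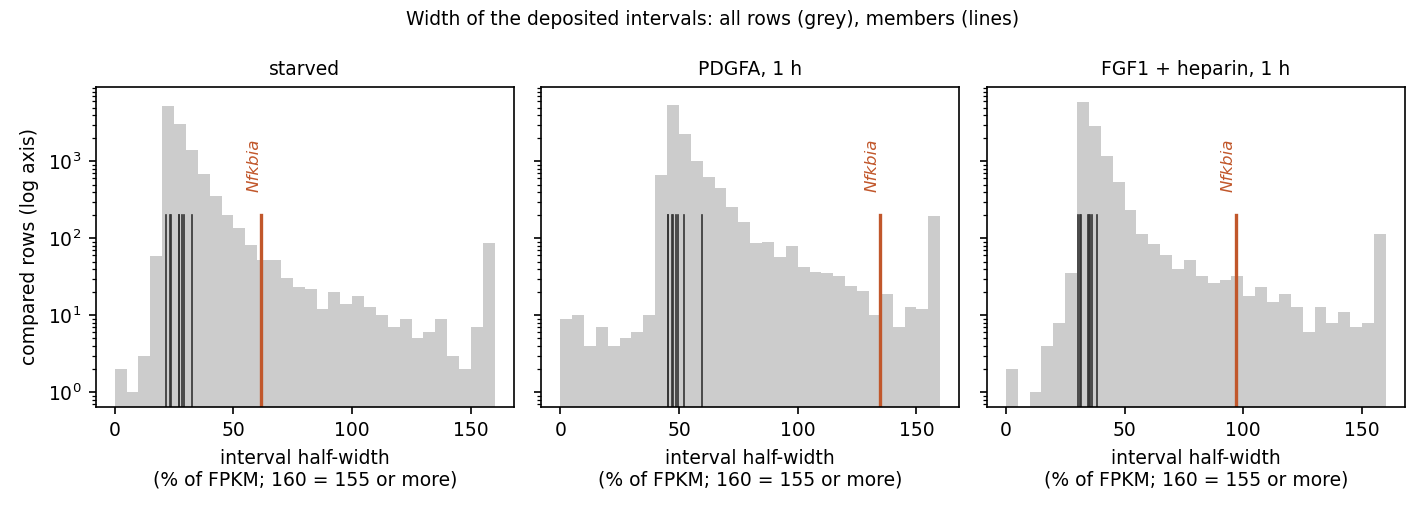
Distribution over compared rows (grey, log count axis) of the distance from an FPKM value to its bounds, averaged over both sides and given as a percentage of the value, in each group; lines mark the compared genes of the family. Nfkbia (long line, labelled) stands at 61.7%, 134.6% and 96.8%, to the right of the other 8 genes in each group, and the last bin holds all wider rows.

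How large a change these intervals could have shown differs by gene. With the relative widths as deposited, intervals of the other 8 compared genes would lie just apart at PDGFA to starved ratios from 2.23 (Nfkb1) to 3.28 (Nfkbiz). For FGF1 to starved the needed ratios ran from 1.75 (Nfkb1) to 2.15 (Nfkbiz). The medians were 2.46 over the 11244 compared rows for which this ratio could be computed with PDGFA and 1.92 over 11388 rows with FGF1. For Nfkbia the needed ratio was 48.3 with FGF1 and larger still with PDGFA, so a change of several times would have passed without a call.

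**Figure D4:**
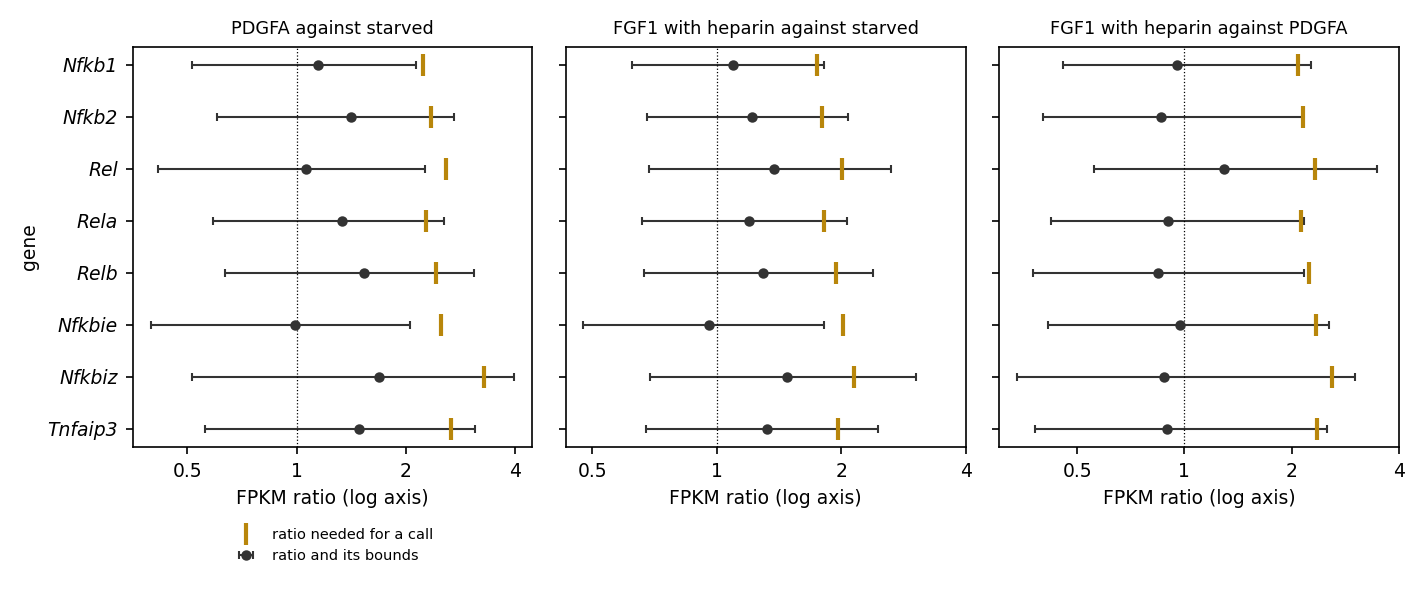
FPKM ratios (log axis) of 8 compared genes in the 3 comparisons, with bars from the lowest to the highest ratio the deposited bounds allow and an upright mark at the ratio at which the intervals would just lie apart; Nfkbia is left out because its bars exceed the axis. Every bar crosses 1 and no point reaches its mark.

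Read without calls, the values of the family leaned upward. On the log2(FPKM + 0.5) scale, which understates the change of low genes, 8 of the 9 stood above their starved value with PDGFA, with a median log2 difference of 0.49, where 49.3% of all compared rows did so and their median was -0.003. With FGF1 7 of 9 stood above, median 0.28, where 56.0% of all rows did so and their median was 0.02. FGF1 exceeded PDGFA in 1 of 9, Rel, with a median of -0.16, where 53.1% of all rows did so. The genes were chosen with earlier results of these data known, so these counts describe the values and support no change of the family. With upper-quartile scaling, which moves the median of all rows by -0.09 with PDGFA, Rel went to the other side of its starved value and 7 of 9 stood above.

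PDGFA folds followed the base composition of transcripts across the table. Over 11510 rows with a known transcript, the Spearman correlation of log2 fold with GC content was 0.61 for PDGFA against starved cells, 0.18 for FGF1 and -0.60 between the ligands; these are across genes, which are not independent replicates. The transcripts of the subunit genes Relb (61.1% GC), Rela (59.4%) and Nfkb2 (59.2%) lay above the median of 50.4%, while Rel lay at 42.5%. With a trend on GC content, length and level removed, the PDGFA log2 difference of Relb went from 0.59 to 0.33, that of Nfkb2 from 0.49 to 0.24, that of Rela from 0.41 to 0.15 and that of Nfkb1 from 0.20 to 0.10. Among the inhibitor genes, Nfkbia went from 0.86 to 0.79, Nfkbiz from 0.62 to 0.69, Tnfaip3 from 0.50 to 0.57 and Nfkbie from -0.02 to -0.12. Rel went up, from 0.08 to 0.25 with PDGFA and from 0.42 to 0.50 with FGF1. The medians of the 9 genes became 0.25 with PDGFA and 0.20 with FGF1. Between the ligands the median went from -0.16 to -0.05, and FGF1 exceeded PDGFA in 2 of 9, Rel and Nfkbie, in place of 1. Whether the trend is technical or part of the response was not tested. Whether the differences with the trend removed exceed the spread between libraries was not tested either.

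The rest of the pathway was followed in 4 lists of 99 genes, of which 76 were compared. With PDGFA 1 of the 76 was called, where 0.308% of all compared rows were. With FGF1 5 of the 76 were called, where 0.555% of all rows were, and between the ligands 0 were called, where 0.12% of all rows were. All of these calls were higher with the ligand. The lists were chosen with earlier results known, so the counts support nothing about the pathway. Of the 20 receptor and ligand genes, 13 were compared and 0 called, with median log2 differences of 0.01 with PDGFA and 0.06 with FGF1. Of the cytokine genes that start the pathway, Tnf was at 0.008 FPKM in starved cells and at 0 in the others, and Il1a and Il1b were at or near 0 in every group. Ligand genes linked to the non-canonical branch differed widely in level. Ltb had 0.131 FPKM starved, 0.103 with PDGFA and 0.168 with FGF1, and Tnfsf13b had 0.028, 0.052 and 0.034. The row of Tnfsf12, which encodes TWEAK, had 16.0 FPKM starved, 16.4 with PDGFA and 16.8 with FGF1. That row also lists Tnfsf13 and Tnfsfm13, so its value cannot be assigned to Tnfsf12 alone. Tnfsf11, which encodes RANKL, had 3.12, 4.71 and 4.45 FPKM. The intervals of the Tnfsf12 and Tnfsf11 rows overlapped. The highest genes of the list in starved cells were Tnfrsf12a, the receptor of TWEAK, at 146 FPKM [96.6 to 196] starved, 229 [88.4 to 369] with PDGFA and 248 [150 to 347] with FGF1, and Tnfrsf1a, the main TNF receptor, at 55.3, 54.0 and 56.8 FPKM.

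Among 27 adaptor and kinase genes, 25 were compared, with medians of 0.01 with PDGFA and -0.004 with FGF1. With FGF1 1 of the 25 was called, where 0.555% of all rows were. With PDGFA 0 were called, where 0.308% of all rows were, and between the ligands 0, where 0.12% were. Map3k14, which encodes NIK, the kinase that starts processing of the Nfkb2 precursor, had 5.06 FPKM [3.81 to 6.31] starved, 6.15 [3.27 to 9.04] with PDGFA and 9.40 [6.43 to 12.4] with FGF1. It was 1.86 times higher with FGF1 than in starved cells, intervals just apart, and its PDGFA interval overlapped both. Map3k14 lost the call under upper-quartile scaling and where a ratio of at least 2 was asked for. The highest in starved cells were Tab2, an adaptor of the TAK1 kinase, at 51.1 FPKM and Rbck1, a subunit of the linear ubiquitin ligase, at 34.1 FPKM, with overlapping intervals in all groups (50.95 and 42.9 with PDGFA, 52.2 and 37.0 with FGF1). Of 20 other inhibitor genes 19 were compared, with medians of -0.03 and 0.02. In each comparison 0 of the 19 were called, which is near those shares of all rows. The highest, Rnf11 and Tax1bp1, partners of the TNFAIP3 ubiquitin-editing complex, had 82.5 and 58.7 FPKM in starved cells, 76.2 and 50.9 with PDGFA and 97.9 and 60.95 with FGF1.

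Of 32 genes often listed as NF-κB targets, 19 were compared. With PDGFA 1 of the 19 was called, beside 0.308% of all rows, and with FGF1 4, beside 0.555%, all higher. The median log2 differences were 0.20 and 0.13, and under upper-quartile scaling they were 0.11 and 0.06. Ptgs2, the inducible prostaglandin synthase, had 17.7 FPKM [13.6 to 21.7] starved, 49.8 [25.5 to 74.2] with PDGFA and 93.7 [64.2 to 123] with FGF1, and was called with both ligands. Its intervals with PDGFA and FGF1 overlapped. Ier3 had 24.7 FPKM [15.9 to 31.8] starved, 45.4 [22.9 to 67.9] with PDGFA and 62.3 [37.2 to 81.7] with FGF1, and was called with FGF1, a ratio of 2.52. Myc, a growth regulator, had 26.1 [20.5 to 31.8], 41.1 [21.6 to 60.6] and 53.4 FPKM [37.0 to 69.9], and Lif, a cytokine of the interleukin 6 family, 7.21 [5.49 to 8.94], 9.70 [5.02 to 14.4] and 16.4 [11.2 to 21.5]. Both were called with FGF1 and not with PDGFA, and the difference between the ligands was not called for either. The looser rule called 0.513% of all rows between the ligands. Under it Lif, Ptgs2 and Map3k14 were higher with FGF1 than with PDGFA, and Myc and Ier3 were not called. The highest in starved cells, Csf1, a macrophage growth factor, and Cd44, a hyaluronan receptor, had 72.9 and 70.8 FPKM starved, 75.4 and 82.3 with PDGFA and 79.7 and 88.7 with FGF1. The 4 called target genes are known to be regulated by many other pathways too, and which pathway acted here was not tested. In their promoter windows Ier3 held a κB match, Ptgs2 and Map3k14 held none, and Lif held the AP-1 motif only, while Myc had no window in the table. Over the list, 10 of the 23 target genes with a window held a κB match, beside 4 of 17 receptor and ligand genes, 2 of 22 adaptor and kinase genes and 4 of 14 other inhibitor genes.

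**Figure D5:**
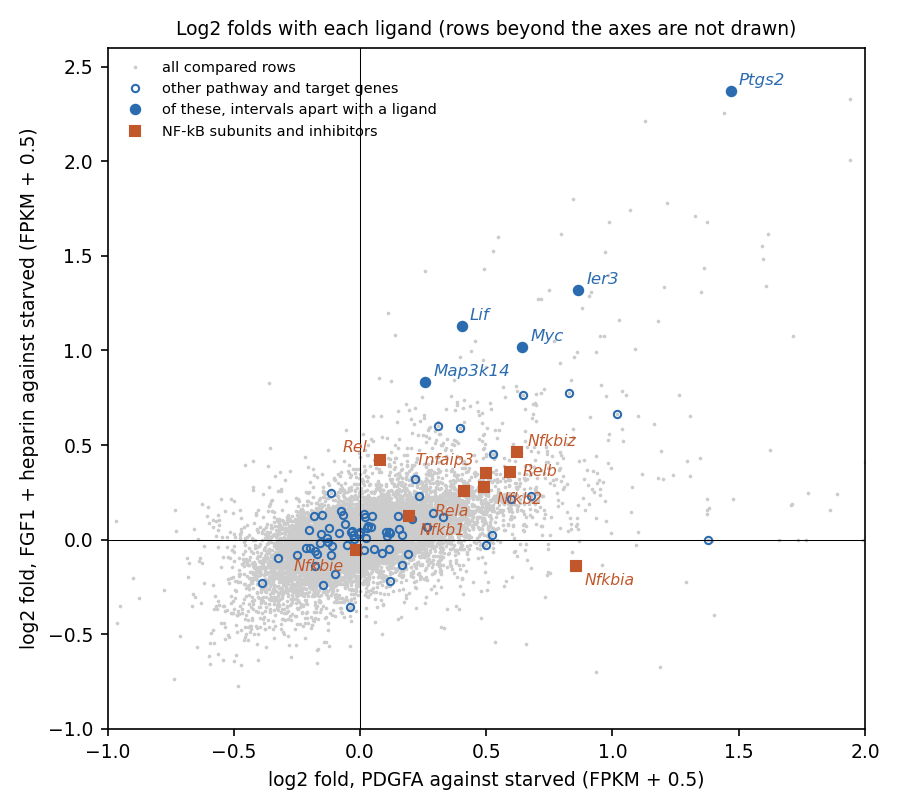
Log2 difference in FPKM + 0.5 with PDGFA (x axis) and with FGF1 and heparin (y axis) against the same starved group, for all compared rows (grey), the 9 compared genes of the family (squares) and the 76 compared pathway and target genes (circles, filled where intervals lay apart with a ligand). The family lies between -0.02 and 0.86 on the x axis and between -0.14 and 0.46 on the y axis, under the called genes Ptgs2, Ier3, Lif, Myc and Map3k14 in the FGF1 direction.

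The cultures carried mesenchyme markers at widely differing levels. Of 9 mesenchyme markers 8 were compared, and Col1a1 had a failed estimate. In starved cells they ranged from Osr2 at 3.73 FPKM and Pdgfra at 3.87 FPKM to Twist1 at 60.1 FPKM, Prrx1 at 233 FPKM and Col1a2 at 2025 FPKM. Pdgfra, a PDGFA receptor gene, had 3.52 FPKM with PDGFA and 2.46 with FGF1, with overlapping intervals. It was lower with FGF1 than in starved cells by the looser rule, which called 1.76% of all rows. Macrophages and endothelium respond strongly through NF-κB. Macrophage markers summed to 4.84 FPKM in starved cells, 4.64 with PDGFA and 4.17 with FGF1. Of the 7 with a row, 2 were compared, Cd14 at 2.71 and Lyz2 at 1.78 FPKM in starved cells, which made up most of the sum, while Ptprc stood at 0.061. Endothelial markers summed to 3.59, 4.28 and 3.78 FPKM. Of these 5, 2 were compared, Kdr at 2.03 and Tek at 1.37 FPKM in starved cells, while Pecam1 stood at 0.035 and Cdh5 at 0.032. Epithelial markers summed to 0.379, 0.483 and 0.427 with none compared. Their part in the values of the family was not tested. In bulk RNA, fewer cells of a type and less RNA per cell cannot be told apart.

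The genes lie at separate loci of mm10. By RefSeq they are Nfkb1 at chr3:135584655-135691969, Nfkb2 at chr19:46300994-46312400, Rela at chr19:5637442-5648134, Rel at chr11:23736847-23770969 and Relb at chr7:19606217-19629438. The inhibitors are Nfkbia at chr12:55489409-55492647, Nfkbie at chr17:45555700-45563169, Nfkbiz at chr16:55811375-55838954, Tnfaip3 at chr10:19000910-19015410 and Bcl3 at chr7:19808462-19822824. The Nfkb2 row shares its recorded locus with Psd.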

How the data were processed

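Libraries were polyA-selected RNA from MEPMs: 4 starved, 4 PDGFA and 3 FGF1 with heparin, grouped by their titles. CASAVA, TopHat and Cuffdiff with build mm10 are named per the submitters' processing notes; versions, settings and annotation were not given in the sources used here. Values deposited by the authors are FPKM, 1 per group, each with a deposited lower and upper bound per the file headers. Since FPKM is scaled to each library's total, large changes elsewhere can shift a gene. Depth is unknown.

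Of 23286 rows, 11702 with at least 1 FPKM in a group and no failed estimate (2 rows failed) were compared. A call needs intervals apart and each value inside its own interval; 167 compared rows had a value outside it in some group. It describes group estimates and tests nothing between replicates. Log2 differences use FPKM + 0.5. The lowest and highest ratio set the lower bound of one group over the upper bound of the other, and the reverse. The needed ratio keeps the relative widths. The trend is a robust cubic regression of log2 differences on GC content, log2 length and log2 level (GENCODE M21 transcripts of at least 200 nt; 99.4% of compared rows had values). The call step was run on simulated data with known changes, with relative interval widths capped below those of Nfkbia with either ligand. That run checks the code and not the calls made here.

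Named genes are all 10 members, each pathway gene called in any comparison and the 2 highest in starved cells per list. Members and lists were chosen with earlier results of these data known. Alternatives covered the minimum FPKM (none, 5), the pseudocount (0.1, 1), median-of-ratios and upper-quartile scaling, a stricter and a looser call, and the trend. The macrophage marker Cd68 was not analysed here. Promoter windows were from RefSeq (GRCm38.p6). Regression used statsmodels 0.14.6 and figures matplotlib 3.10.9, in Python 3.11.15 with pandas 2.3.3 and numpy 2.4.6.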

Additional observations from a re-analysis of the deposited data

How the results depend on the processing

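No gene of the family that was compared was called under any alternative run: no minimum FPKM, a minimum of 5, both scalings, the stricter and looser call rules and the trend removed. With no minimum Bcl3 was compared too. With a minimum of 5 Tnfaip3 and Nfkbiz, at most 4.30 and 3.16 FPKM, were left out. Over 30 log2 differences of the family, the alternative values moved by -0.26 to 0.19. Of these values 150 of 150 lay within the bounds of the deposited intervals. The intervals are wide beside such moves, so this says little about how well the values hold. Values that changed sign were 3: Rel with PDGFA under upper-quartile scaling (0.08 to -0.0045), Bcl3 with FGF1 under upper-quartile scaling (0.03 to -0.02) and Nfkbie between the ligands with the trend removed (-0.04 to 0.06). The cause was not tested. Counts over all rows moved by more than 1.5 times as follows. Rows lower with PDGFA went from 0 to 1 with no minimum, 3 with upper-quartile scaling and 44 with the looser rule. That rule gave 69 rows higher with PDGFA in place of 36, 123 higher and 83 lower with FGF1 in place of 63 and 2, and 41 higher and 19 lower between the ligands in place of 3 and 11. A minimum of 5 FPKM gave 1 row lower with FGF1 and 5 lower between the ligands, and median-of-ratios scaling 1 higher between the ligands. No paired analysis was possible because each group has 1 deposited value per row; leaving out replicates was not possible for the same reason. The unstated confidence level and unknown depth limit every interval.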

Other observations

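These genes were singled out after their values were seen. Zc3h12a, which encodes an RNase that degrades inflammatory mRNAs, had 2.39 FPKM [1.62 to 3.15] starved, 5.34 [2.62 to 8.04] with PDGFA and 4.07 [2.59 to 5.55] with FGF1, the only one of the other inhibitor genes to pass the looser rule, with both ligands. Plau, the urokinase gene, had 39.3 FPKM [29.5 to 48.4] starved, 70.2 [37.9 to 102] with PDGFA and 67.6 [45.6 to 89.1] with FGF1, and passed it with FGF1. Tnfrsf12a passed it with FGF1 too. That rule called 0.966% of all rows with PDGFA and 1.76% with FGF1. The Irak1 row had 22.95 FPKM starved, 60.5 [14.5 to 106] with PDGFA and 22.9 with FGF1, and it also lists the accessions of the microRNA genes Mir5132 and Mir718.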
